A study of Homo sapiens with 6 samples.

Results

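The centromere is the stretch of each chromosome where the kinetochore is built, the protein assembly that binds spindle microtubules in mitosis. The genes described here are 42 components of both, chosen by name for their known place in these structures, with earlier results of these data known. They load the centromeric histone CENP-A, form the inner and outer kinetochore, hold microtubule ends, run the spindle checkpoint, guard cohesion at the centromere or make up the chromosomal passenger complex. A probe was found for 41 of the 42 through its RefSeq accession, among 22439 genes named in this way. CENPM was matched by no accession and has no value. All 41 were well above background on every array that gave them a value.

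In a dividing cell, a chromatin core marked by CENP-A recruits the constitutive centromere-associated network (CCAN), which stays on the centromere through the cell cycle. On top of it the KMN network (KNL1, the Mis12 complex and the Ndc80 complex) assembles and grips microtubules. Unattached kinetochores hold the spindle checkpoint on, and the chromosomal passenger complex, through its kinase Aurora B, destabilizes wrong attachments. Many of these genes are transcribed mostly in late S, G2 and M phase, so that in mRNA from a whole culture a smaller share of cells in those phases and less mRNA per cell cannot be told apart.

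The samples were AGS cells, a human gastric adenocarcinoma line grown in RPMI1640 with 10% fetal bovine serum, collected 48 h after transfection. The groups were si-Control, a nontargeting siRNA, and si-C1GALT1-3, 1 of the siRNAs used against C1GALT1, the enzyme that adds the galactose of core 1 O-glycans. Each group had 3 samples, each on its own one-colour Agilent array, and the comparison asks which mRNAs differ when C1GALT1 is targeted. The sources do not say whether the samples came from separate cultures, so the p-values measure the spread between these samples, which may be technical, and a single siRNA in a single line was tested.

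Between 66.2% and 72.7% of the 60901 gene spots on an array were well above background, and no gene spot was saturated. A block of si-Control replicate 2, with 9712 gene spots (15.9%), read low by a median of -2.19 on the log2 scale against the other si-Control arrays. Its spots were set to missing. Same-numbered arrays shared a slide, on which si-Control always lay in array column 1 and si-C1GALT1-3 in column 2, so position on the slide and treatment cannot be told apart. The number of arrays limits the precision of every value. All 6 epithelial markers were above background on every array that gave a value, with a summed signal of 447000 to 677000 in si-Control and 353000 to 606000 in si-C1GALT1-3. Of 5 fibroblast markers, COL1A1 and COL3A1 were above background on every array with a value, COL1A2 on 3 arrays, DCN on 1 and LUM on 0. The summed signal of the 3 with a value on all arrays ran from 350 to 966 in si-Control and from 880 to 1510 in si-C1GALT1-3. COL3A1 differed by 1.17 on the log2 scale (SE 0.46, adjusted p = 0.350 in limma) and COL1A1 by -0.05, both with overlapping groups. The leukocyte markers PTPRC and CD3E were above background on all 6 arrays, with differences of -0.33 and -0.37 and overlapping groups. The part of other cell types in the results was not tested.

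The log2 signal of C1GALT1 was 12.22, 13.03 and 12.62 in si-Control replicates 1 to 3 and 11.76, 11.98 and 11.13 in si-C1GALT1-3. The highest si-C1GALT1-3 array was still below the lowest si-Control array. The difference was -1.0 (SE 0.31, adjusted p = 0.265 by limma with Benjamini-Hochberg over all probes), a ratio of 2.00-fold whose p-value missed the threshold of p under 0.01 and 2-fold used throughout for a change. Within slides 1, 2 and 3 it was -0.47, -1.05 and -1.49.

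At that threshold 10 of the 41 members (24.4%) were lower in si-C1GALT1-3 and 0 were higher, against 1.33% lower and 2.08% higher among all 22437 genes fitted. Those that fell were HJURP, SPAG5, BIRC5, SKA1, CDCA8, SGO2, MIS12, KNL1, MAD2L1 and CENPW, by 1.04 to 2.01 on the log2 scale. A fitted difference below 0 was found for 35 members, where 47.6% of all genes were below 0, and the median was -0.86 against 0.02 for all genes. A difference of -1 or lower was found for 18 members and 3.12% of all genes. Of these 18, CENPA, OIP5, CENPH, CENPU, NDC80, NUF2, SPC25 and SGO1 missed the p-value. At an unadjusted p under 0.05, 25 members were lower and 0 higher, against 7.14% and 9.49% of all genes. At an adjusted p under 0.05 in limma 0 members passed, against 0.138% of all genes, the smallest being 0.0839 for SKA1. With dim probes left out 4 members passed it, beside 309 of the 17749 genes tested there. With another background correction (normexp) 5 members passed it, beside 263 of 22437 genes.

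Counts depended on single arrays. Without si-Control replicate 2, without si-C1GALT1-3 replicate 2 or without si-C1GALT1-3 replicate 3, 6 members were called lower in each case. Of all genes, 1.19%, 1.2% and 1.25% were called lower in those settings. No setting called a member higher. SKA1 and SPAG5 passed under every setting tried. The study itself placed 11 of the members in gene lists drawn up from these arrays (MAD2L1, SPC25, BIRC5, MIS12, CENPW, NUF2, KNL1, SGO1, SKA1, CDCA8 and SGO2), so their direction is not independent evidence. Of these 11, 8 fell, with a median of -1.18. Of the 30 measured members not in those lists, HJURP and SPAG5 fell (6.67%), and 24 were below 0 with a median of -0.62.

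In 28 members (68.3%) the si-C1GALT1-3 arrays were all below the si-Control arrays, as they were in 11.2% of all genes. In 1 member, MAD1L1, they were all above (14% of all genes), and in 12 the groups overlapped. The si-C1GALT1-3 replicate 3 array was the lowest of all arrays for 31 members, against 16.5% of all genes. For 20 of the 35 members with a value there, si-Control replicate 2 was the highest. Among genes of the lists below with a value there, it was highest for 22 of 33 G2 and M phase genes and 4 of 33 S phase genes. The plot of members by array shows both arrays and the flat genes among the CCAN and the Mis12 complex.

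**Figure D1:**
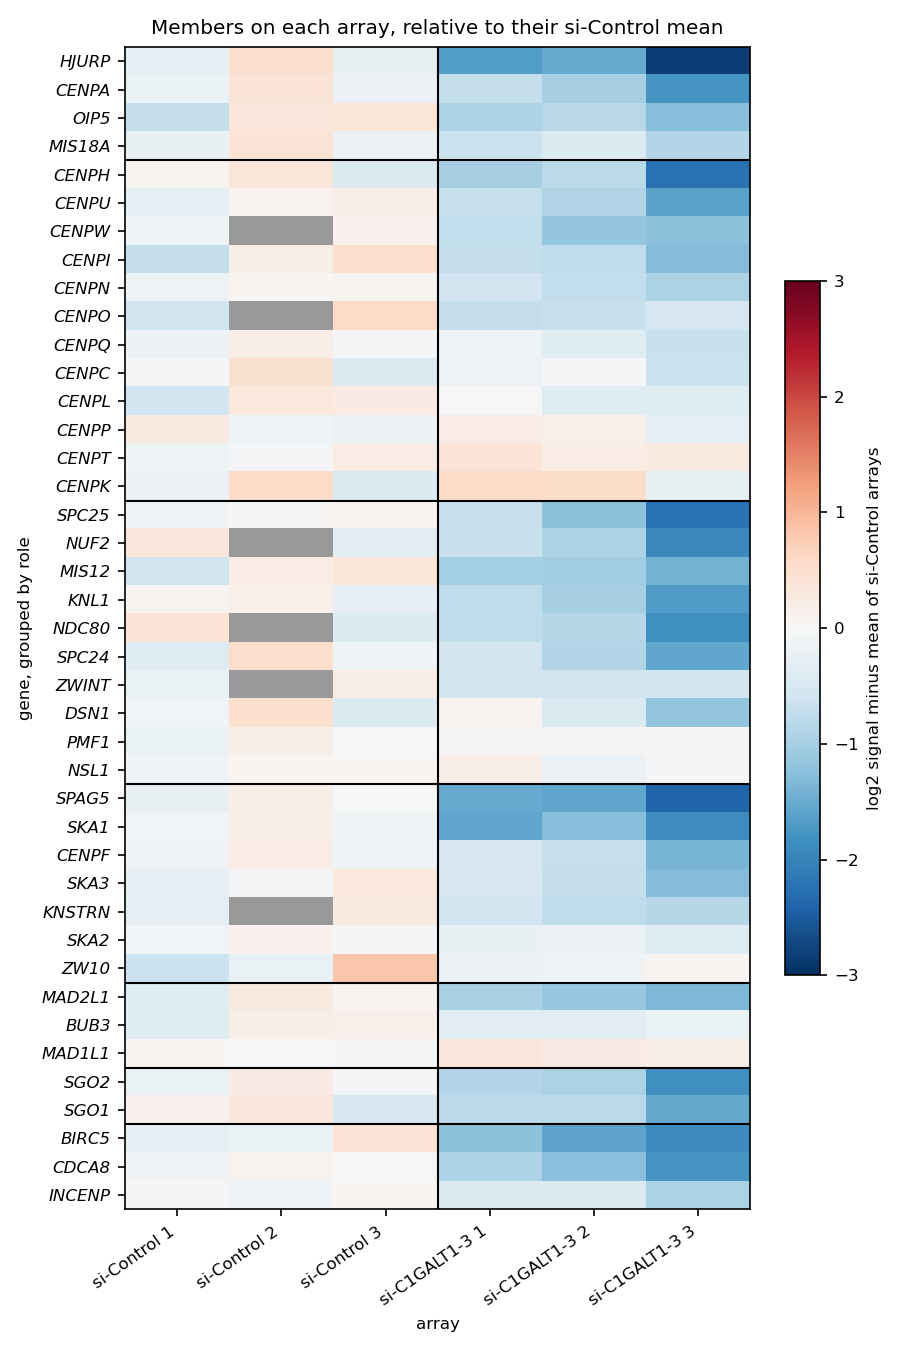
Log2 signal of the 41 measured members (rows, grouped by role) on each of the 6 arrays (columns), as the difference from the gene's si-Control mean on the log2 scale, with missing values in grey. The darkest cells are those of si-C1GALT1-3 replicate 3, the lowest array for 31 members, while PMF1, NSL1, CENPP, CENPT, CENPK and MAD1L1 stay near or above their si-Control mean.

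Promoters were read from RefSeq (GRCh38.p14) as 250 bases before to 50 bases after the annotated start of transcription, and 35 of the members had an entry, with 40 promoters in all. BIRC5, BUB3, CENPH, CENPL, CENPM, KNL1 and MIS18A had none. The letters searched on both strands were those of the cell cycle genes homology region (CHR), an element known from G2 and M phase genes, those of the CCAAT box and those of an E2F element. The first was taken as TTTGAA with its variants TTTAAA and, less common, TTCGAA. The second was read as CCAAT and the third as GGCGGGA. Below are 5 members that fell and whose promoter holds CHR letters, and PMF1, whose difference was near 0 and whose window holds 3 CCAAT boxes and no CHR letters. Each is written 5′ to 3′ in the direction of the gene, and capitals mark matches to any of the 3 motifs on either strand. In CDCA8 the CHR letters and a CCAAT box read on the other strand overlap.
HJURP (chr2:233854486-233854785, reverse strand): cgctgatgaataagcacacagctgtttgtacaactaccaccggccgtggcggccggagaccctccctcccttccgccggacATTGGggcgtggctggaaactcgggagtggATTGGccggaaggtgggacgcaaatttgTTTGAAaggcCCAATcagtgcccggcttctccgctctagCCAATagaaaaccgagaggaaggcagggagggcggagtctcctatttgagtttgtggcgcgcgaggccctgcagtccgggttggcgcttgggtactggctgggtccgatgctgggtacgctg
SPAG5 (chr17:28598976-28599275, reverse strand): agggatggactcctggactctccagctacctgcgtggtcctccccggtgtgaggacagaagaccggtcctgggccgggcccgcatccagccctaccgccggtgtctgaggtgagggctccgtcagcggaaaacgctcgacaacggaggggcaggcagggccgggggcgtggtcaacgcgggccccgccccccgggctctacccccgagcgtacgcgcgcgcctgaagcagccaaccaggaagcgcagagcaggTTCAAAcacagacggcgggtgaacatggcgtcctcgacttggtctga
SKA1 (chr18:50374796-50375095, forward strand): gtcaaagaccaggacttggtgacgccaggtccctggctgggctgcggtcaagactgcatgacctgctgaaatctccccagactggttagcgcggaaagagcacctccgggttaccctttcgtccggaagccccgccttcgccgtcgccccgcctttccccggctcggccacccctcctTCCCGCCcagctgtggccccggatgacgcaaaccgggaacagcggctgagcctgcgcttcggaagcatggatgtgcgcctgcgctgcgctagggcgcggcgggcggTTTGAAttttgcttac
MAD2L1 (chr4:120066799-120067098, reverse strand): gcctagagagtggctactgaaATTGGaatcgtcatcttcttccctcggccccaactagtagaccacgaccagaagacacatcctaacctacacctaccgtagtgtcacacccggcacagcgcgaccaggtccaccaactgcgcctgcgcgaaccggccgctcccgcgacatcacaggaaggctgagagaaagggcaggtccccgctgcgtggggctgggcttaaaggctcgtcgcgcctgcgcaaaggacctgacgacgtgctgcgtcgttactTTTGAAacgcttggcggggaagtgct
CDCA8 (chr1:37692266-37692565, forward strand): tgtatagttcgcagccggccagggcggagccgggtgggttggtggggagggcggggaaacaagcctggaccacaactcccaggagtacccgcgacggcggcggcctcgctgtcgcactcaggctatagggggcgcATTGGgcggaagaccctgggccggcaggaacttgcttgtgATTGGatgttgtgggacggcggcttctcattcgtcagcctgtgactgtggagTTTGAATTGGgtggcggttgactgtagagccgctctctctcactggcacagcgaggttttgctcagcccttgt
PMF1 (chr1:156212757-156213056, forward strand): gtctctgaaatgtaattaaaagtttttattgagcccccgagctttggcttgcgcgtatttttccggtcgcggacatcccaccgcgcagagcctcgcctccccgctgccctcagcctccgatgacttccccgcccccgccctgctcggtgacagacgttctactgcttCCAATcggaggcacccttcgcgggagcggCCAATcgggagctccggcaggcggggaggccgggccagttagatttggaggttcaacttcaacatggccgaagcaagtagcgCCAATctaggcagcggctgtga

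CHR letters stood in 23 of the 40 member promoters (57.5%) and in 25.1% of all 34943 promoters of the same length. Within 50 bases of the start they stood in 20 (50%), against 8.04% of all. CCAAT letters were in 26 (65%, against 34.6%), E2F letters in 15 (37.5%, against 15.3%), and CHR together with CCAAT letters in 17 (42.5%, against 9.72%). Among the 27 promoters of members whose groups did not overlap and were lower, 20 held CHR letters, 19 of them within 50 bases of the start. Among the 13 promoters of the other members, 3 held them, 1 of them that close. Split by the threshold, CHR letters stood in 8 of the 10 promoters of members that fell and 15 of the 30 of members not called. Those 10 promoters are not 1 for each of the 10 members that fell. BIRC5 and KNL1 had no entry, and MIS12 and SGO2 each had more than 1. Split by overlap, CCAAT letters differed in the same direction (74.1% against 46.2%), as did E2F letters (44.4% against 23.1%). Several members share a gene family or have more than 1 entry, and a match of letters is a description of the window and no evidence of binding. The map of motif letters sets each position beside the gene's difference.

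**Figure D2:**
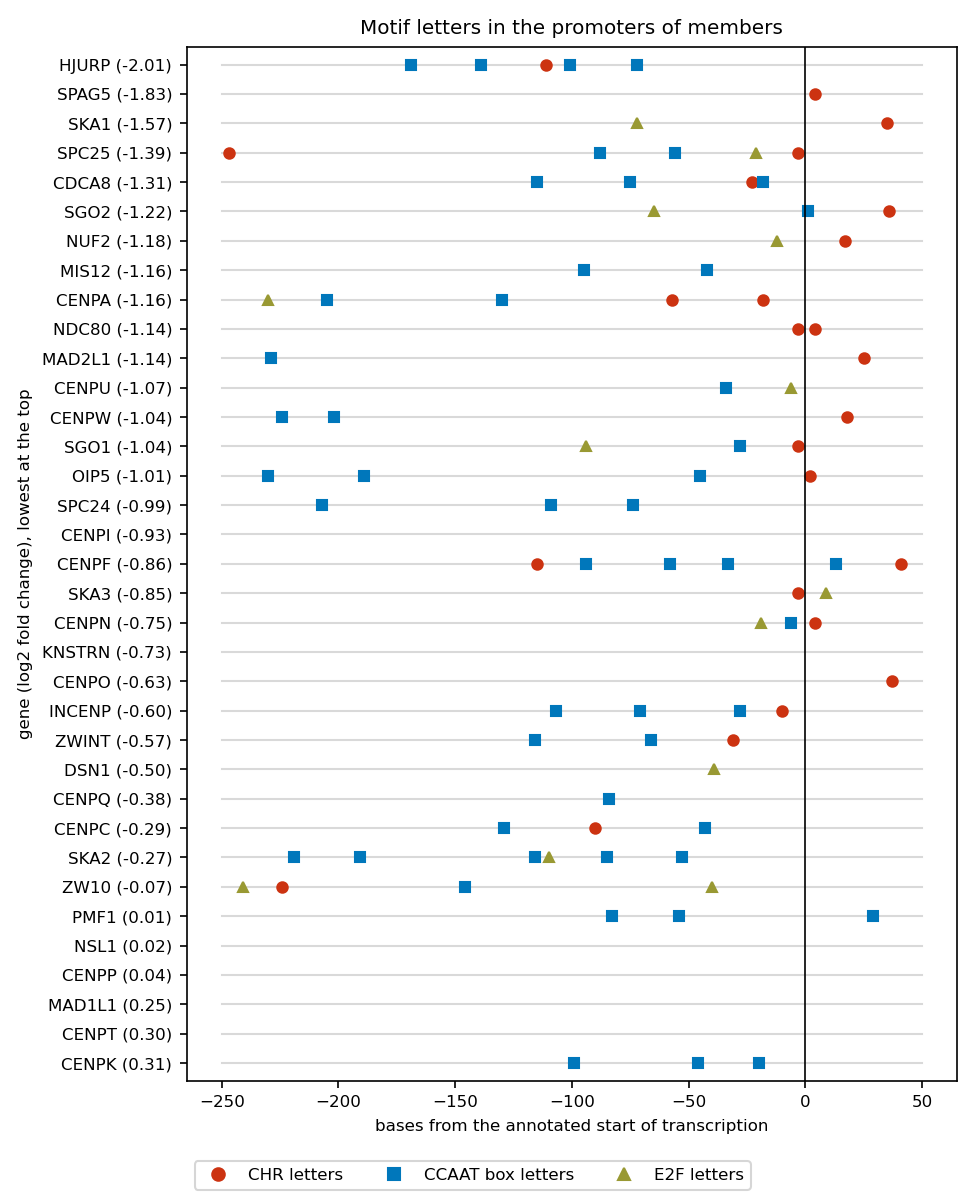
Positions of CHR (circles), CCAAT (squares) and E2F letters (triangles) in the promoter of each member with an entry (1 entry per gene), in bases from the annotated start of transcription, ordered by log2 fold change from HJURP (-2.01) to CENPK (0.31). CHR letters crowd around the start in the upper part of the plot and are missing from the 6 genes at the bottom.

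The 4 genes of CENP-A deposition were all lower without overlap, and 1 fell. HJURP, the chaperone that loads CENP-A at centromeres, had log2 signals of 12.44, 13.19 and 12.50 in si-Control and 11.02, 11.19 and 9.89 in si-C1GALT1-3. All si-C1GALT1-3 arrays were lower, replicate 3 by most. HJURP fell by 2.01 (SE 0.41, adjusted p = 0.150 in limma), 4.02-fold, the lowest value of all members; its promoter above holds 4 CCAAT boxes beside the CHR letters. The call was lost without si-Control replicate 2, where the difference was -1.77, and with a Student's t-test on the same values. CENPA itself, the histone H3 variant that marks the centromere, was at 9.85, 10.43 and 9.87 in si-Control and 9.35, 9.06 and 8.28 in si-C1GALT1-3. The groups did not overlap, but the difference of -1.16 (95% interval -1.97 to -0.34) had adjusted p = 0.239 and missed the threshold. OIP5 and MIS18A, which belong to the Mis18 complex that prepares the centromere for new CENP-A, differed by -1.01 (adjusted p = 0.288) and -0.64 (adjusted p = 0.317).

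The 12 measured genes of the CCAN, the inner kinetochore, were mixed. Their median was -0.51, 9 members were below 0, and in 7 of the 12 the groups overlapped. CENPW, the histone-fold partner of CENPT, was at 11.45 and 11.69 in si-Control replicates 1 and 3 and at 10.83, 10.41 and 10.35 in si-C1GALT1-3. The groups did not overlap, with 2 si-Control values since its spot lay in the low block of replicate 2. CENPW fell by 1.04 (SE 0.22, adjusted p = 0.182). With the low block kept the difference was -0.15, and with the replicate as a block in the fit it was -0.98 (SE 0.27), both short of the threshold. The call was also lost with a Student's t-test, without normalization between arrays (-0.94) and without si-C1GALT1-3 replicate 2 or 3. Leaving out si-Control replicate 1 or 3 leaves CENPW a single si-Control value. CENPT, its partner on DNA, read 10.63, 10.73 and 11.00 in si-Control and 11.19, 11.00 and 11.06 in si-C1GALT1-3. Its groups touched, and the difference was 0.30 (95% interval -0.08 to 0.68).

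Of the CENP-H, CENP-I and CENP-K subcomplex of the CCAN, CENPH and CENPI had separated groups and CENPK did not. CENPH was at 9.29, 9.58 and 8.78 in si-Control and 8.22, 8.40 and 6.97 in si-C1GALT1-3. The arrays separated fully, with si-C1GALT1-3 replicate 3 far below the rest, and the difference of -1.35 had adjusted p = 0.280. With the replicate as a block it passed, at the same difference and an SE of 0.20. CENPI differed by -0.93 (adjusted p = 0.348), within-slide values running from -0.01 on slide 1 to -1.82 on slide 3. CENPK read 9.26, 10.01 and 9.02 against 10.01, 9.99 and 9.20, with overlapping groups and a difference of 0.31 (95% interval -0.57 to 1.18).

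The CENP-O, CENP-P, CENP-Q and CENP-U genes encode a further subcomplex, which receives the mitotic kinase PLK1 through CENP-U. CENPU read 10.34, 10.74 and 10.82 in si-Control and 9.94, 9.73 and 9.03 in si-C1GALT1-3. The groups did not overlap, and the difference of -1.07 lay just outside the threshold (adjusted p = 0.215). CENPQ differed by -0.38 (95% interval -0.87 to 0.10), CENPO by -0.63 (-1.65 to 0.39) and CENPP by 0.04 (-0.47 to 0.54), and in each the groups overlapped. CENPN, which reads the CENP-A nucleosome together with CENPL, differed by -0.75 (SE 0.16, adjusted p = 0.159), a separation past the p-value at 1.68-fold. CENPL (-0.24, interval -0.93 to 0.46) and CENPC (-0.29, interval -0.99 to 0.41), the scaffold of the inner kinetochore, had overlapping groups.

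In the KMN network, 2 of the 10 genes fell and 7 had separated groups. KNL1, the outer kinetochore scaffold that docks the checkpoint proteins BUB1 and BUB3, read 11.81, 11.89 and 11.47 in si-Control and 10.95, 10.73 and 10.03 in si-C1GALT1-3. The arrays separated fully, and KNL1 fell by 1.15 (SE 0.28, adjusted p = 0.190). That call was lost when any array other than si-C1GALT1-3 replicate 1 was left out. It was also lost with a Student's t-test, without normalization between arrays, with the series value table and with the median over probes. Its partner ZWINT, which brings the corona to KNL1, read 13.28 and 13.66 in si-Control replicates 1 and 3 and 12.91, 12.88 and 12.91 in si-C1GALT1-3. All 3 si-C1GALT1-3 values lay close together below si-Control, and the difference was -0.57 (adjusted p = 0.297).

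In the Mis12 complex, which joins the CCAN to the KMN network, 1 of the 4 subunits fell. MIS12 read 8.23, 9.04 and 9.19 in si-Control and 7.80, 7.77 and 7.39 in si-C1GALT1-3. All si-C1GALT1-3 arrays were below si-Control, and MIS12 fell by 1.16 (SE 0.30, adjusted p = 0.203). The call was lost when any array other than si-Control replicate 1 was left out, and with the replicate as a block (SE 0.32). It was also lost with the low block kept, without normalization between arrays, with a Student's t-test and with the series value table. PMF1 read 12.30, 12.69 and 12.52 in si-Control and 12.53, 12.54 and 12.47 in si-C1GALT1-3, and NSL1 read 11.06, 11.24 and 11.24 against 11.38, 11.00 and 11.21. In both the groups overlapped, with differences of 0.01 (95% interval -0.36 to 0.38) and 0.02 (-0.37 to 0.40). DSN1 lay between, at -0.50 with a wide interval from -1.49 to 0.48.

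The 4 subunits of the Ndc80 complex, the microtubule-gripping rod of the kinetochore, all had separated groups, and none passed the threshold. SPC25 read 10.85, 10.98 and 11.02 in si-Control and 10.25, 9.72 and 8.71 in si-C1GALT1-3. Its si-Control arrays agreed closely while the si-C1GALT1-3 arrays spread widely, and the difference of -1.39 had adjusted p = 0.239. NUF2 (13.50 and 12.84 against 12.50, 12.24 and 11.24) differed by -1.18 with adjusted p = 0.372. NDC80 (12.62 and 11.78 against 11.44, 11.35 and 10.37) differed by -1.14 with adjusted p = 0.377. Both lack si-Control replicate 2, and NDC80 passed with the replicate as a block, where its difference was -1.30 (SE 0.17). SPC24, the partner of SPC25 at the inner end of the rod, differed by -0.99 (adjusted p = 0.316).

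The plot of fitted changes orders the members within each role. The probes of 9 members had spots in the low block of si-Control replicate 2, and 6 of these (CENPO, CENPW, NDC80, NUF2, ZWINT and KNSTRN) kept values from 2 si-Control arrays alone. With the block's spots kept, the differences of CENPO, NUF2, ZWINT and KNSTRN turned positive (1.76, 0.35, 0.89 and 1.01). Among the 35 members with 3 si-Control values, 9 fell and the median was again -0.86.

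**Figure D3:**
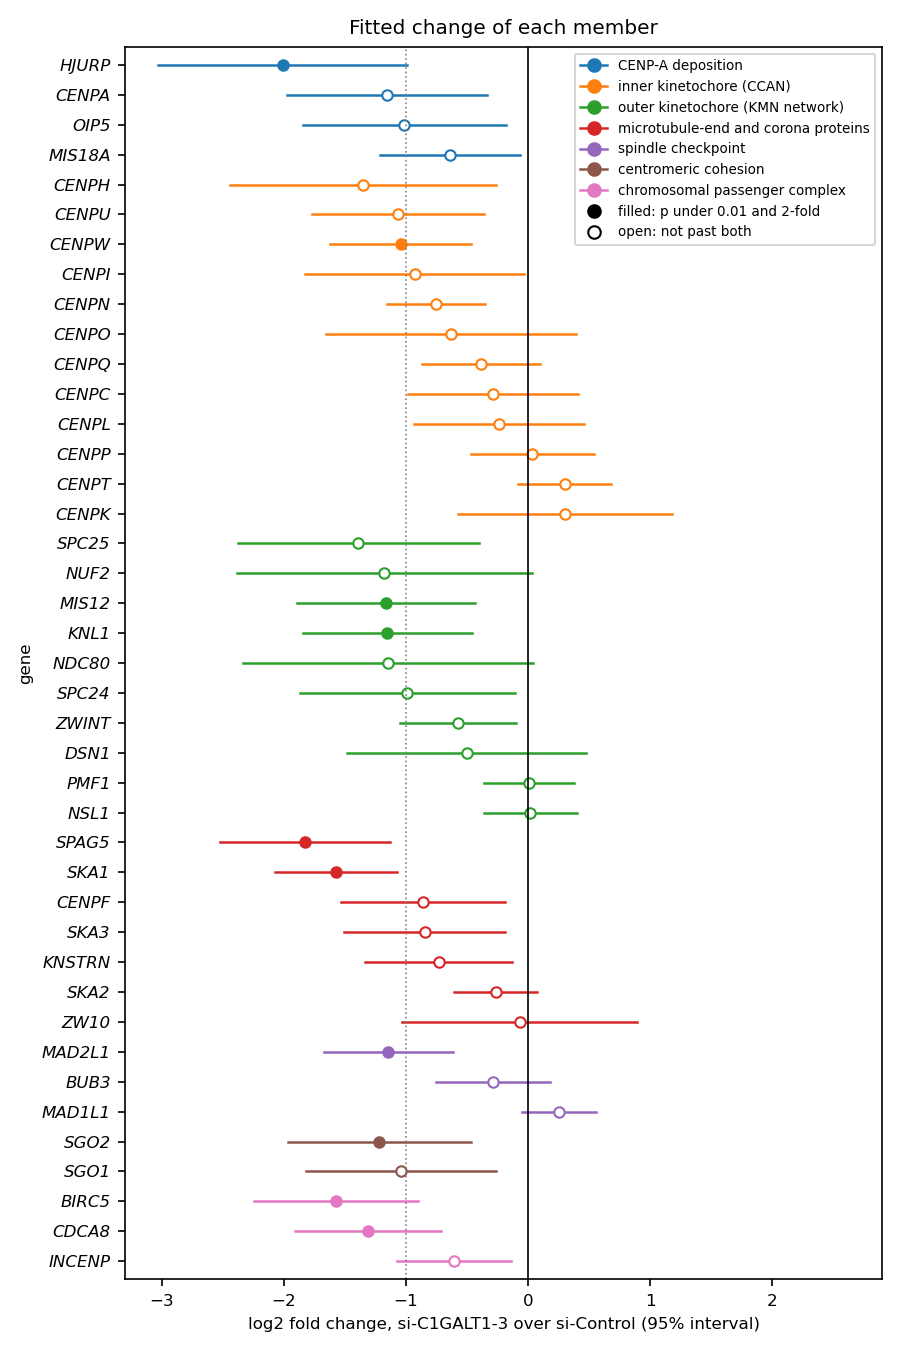
Fitted log2 fold change of si-C1GALT1-3 over si-Control for each measured member (points, coloured by role) with its 95% interval from limma (lines), where filled points passed p under 0.01 and 2-fold. All 10 filled points lie left of the dotted line at -1, from CENPW (-1.04) to HJURP (-2.01), and no interval lies wholly above 0.

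Proteins at microtubule ends and in the corona, the fibrous outer layer of unattached kinetochores, held the members with the smallest p-values. SPAG5 (astrin), which stabilizes bioriented attachments, read 12.18, 12.60 and 12.42 in si-Control and 10.88, 10.83 and 10.00 in si-C1GALT1-3. The arrays separated by more than the range of either group, and SPAG5 fell by 1.83 (SE 0.28, adjusted p = 0.101), 3.55-fold. Its binding partner KNSTRN differed by -0.73 (adjusted p = 0.293) with 2 si-Control values. SKA1, a subunit of the Ska complex that tracks shrinking microtubule ends, read 9.79, 10.09 and 9.76 in si-Control and 8.31, 8.60 and 8.01 in si-C1GALT1-3. SKA1 fell by 1.57 (SE 0.20, adjusted p = 0.0839), 2.98-fold, and its within-slide differences of -1.47, -1.49 and -1.75 were even. In SPAG5 and SKA1 the CHR letters lie in the printed windows after the start of transcription.

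Of the other Ska subunits, SKA3 differed by -0.85 (adjusted p = 0.271) and SKA2 by -0.27 (95% interval -0.61 to 0.07). SKA2 read 11.74, 11.95 and 11.80 in si-Control and 11.60, 11.65 and 11.44 in si-C1GALT1-3, separated arrays with a small gap. A dimmer probe of SKA2 gave 0.31 (SE 0.19), so its direction depends on the probe. CENPF, a large coiled-coil protein of the corona, differed by -0.86 (adjusted p = 0.271) with separated groups. ZW10, a corona protein that recruits dynein, had overlapping groups and a difference of -0.07 (95% interval -1.03 to 0.89).

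The 3 spindle checkpoint members went different ways. MAD2L1, the checkpoint protein that inhibits CDC20, read 13.31, 13.94 and 13.74 in si-Control and 12.70, 12.54 and 12.33 in si-C1GALT1-3. No array overlapped, and MAD2L1 fell by 1.14 (SE 0.21, adjusted p = 0.133), 2.21-fold. Without normalization between arrays it missed the threshold, at -1.08. MAD1L1, the protein that holds MAD2L1 at kinetochores, read 11.43, 11.36 and 11.36 in si-Control and 11.73, 11.63 and 11.56 in si-C1GALT1-3. Here all si-C1GALT1-3 arrays lay above si-Control, by a difference of 0.25 (95% interval -0.05 to 0.56, adjusted p = 0.435). BUB3, which reads phosphorylated KNL1, had overlapping groups at -0.29 (95% interval -0.76 to 0.18).

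Both shugoshins, which shield cohesin at the centromere, had separated groups. SGO2 read 9.95, 10.39 and 10.11 in si-Control and 9.28, 9.20 and 8.31 in si-C1GALT1-3, lowest in replicate 3. SGO2 fell by 1.22 (SE 0.30, adjusted p = 0.196). The call was lost when any array other than si-C1GALT1-3 replicate 1 was left out, and with a Student's t-test. It was also lost with the low block kept, without normalization between arrays, with the series value table and with the replicate as a block (SE 0.27). SGO1 read 12.05, 12.26 and 11.43 against 11.12, 11.11 and 10.38, with even within-slide differences of -0.93, -1.14 and -1.04. Its difference of -1.04 missed the threshold (adjusted p = 0.255) and passed with the replicate as a block, where the SE was 0.12 in place of 0.31. A dimmer probe of SGO1 passed, at -1.22 (SE 0.24).

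In the chromosomal passenger complex all 3 members had separated groups. BIRC5 (survivin), the subunit that docks on phosphorylated histone H3, read 12.28, 12.31 and 12.96 in si-Control and 11.29, 10.92 and 10.61 in si-C1GALT1-3. The gap between the groups was wider than the range within either, and BIRC5 fell by 1.58 (SE 0.27, adjusted p = 0.120), 2.98-fold. With the replicate as a block it lay just outside the threshold, at the same difference with an SE of 0.32. CDCA8 (borealin), which binds BIRC5 and INCENP in a bundle, read 12.22, 12.44 and 12.35 in si-Control and 11.41, 11.09 and 10.57 in si-C1GALT1-3. Its si-Control arrays were tight and every si-C1GALT1-3 array was lower. CDCA8 fell by 1.31 (SE 0.24, adjusted p = 0.131), 2.48-fold, and missed the threshold without normalization between arrays (-1.21). INCENP, the scaffold that carries Aurora B, differed by -0.60 (adjusted p = 0.266), with 8.86, 8.73 and 8.90 in si-Control and 8.39, 8.41 and 7.88 in si-C1GALT1-3.

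Partners of 1 complex were then set against each other on the same array, as the difference of their log2 signals relative to the si-Control mean. The 5 pairs were picked after their values were seen, so they carry no test, and the ratio says that the partners changed unequally and not that either stayed constant. SKA1 minus SKA2 ran from -0.09 to 0.09 in si-Control and from -1.48 to -1.10 in si-C1GALT1-3. MAD2L1 minus MAD1L1 ran from -0.40 to 0.30 and from -1.52 to -1.31. MIS12 minus PMF1 ran from -0.39 to 0.35 and from -1.39 to -1.04. All pairs were separated between groups, CENPW minus CENPT with a difference of -1.31 and BIRC5 minus INCENP with -0.97.

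**Figure D4:**
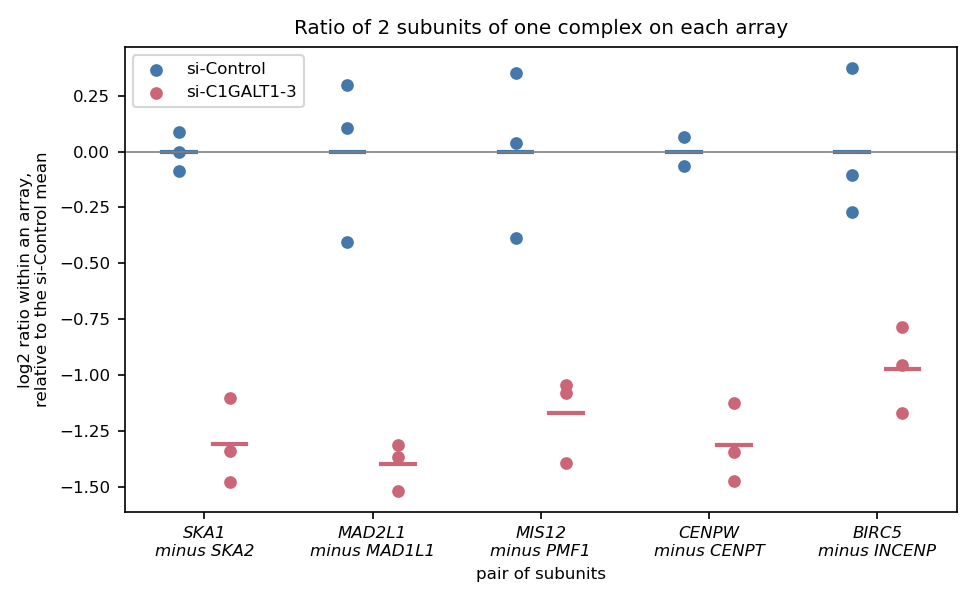
Difference between the log2 signals of 2 subunits on the same array, relative to the si-Control mean, for 5 pairs (points are arrays, bars are group means, blue si-Control and red si-C1GALT1-3). The si-C1GALT1-3 points of each pair lie below all si-Control points, for SKA1 minus SKA2 between -1.48 and -1.10.

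The size of the difference was not even over the slides. The median over the members was -0.40 on slide 1, -0.93 on slide 2 and -1.27 on slide 3, while the medians over all genes were 0.05, 0.02 and 0.00. The G2 and M phase genes and the S phase genes described below had the members' order of medians, so it is not particular to the members. C1GALT1 on the same slides (-0.47, -1.05 and -1.49) had the same order, which with 3 slides is a description. On slide 1, 31 of the 41 members were below 0, on slide 2, 31 of 35, and on slide 3, 38 of 41. On every slide with both values 30 members were lower (23.4% of all genes), and 32 of the 41 had their lowest within-slide value on slide 3. So did 34 of the 41 G2 and M phase genes and 39 of the 42 S phase genes described below.

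**Figure D5:**
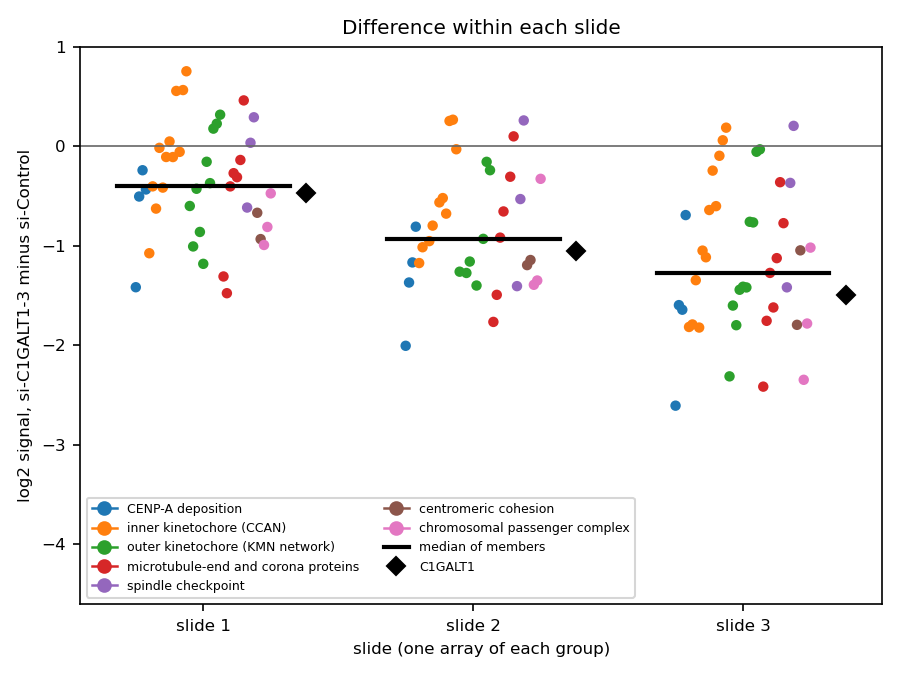
Log2 signal of si-C1GALT1-3 minus si-Control within each of the 3 slides, with 1 point per member coloured by role, the members' median as a bar and C1GALT1 as a diamond. The bar sits at -0.40, -0.93 and -1.27 on slides 1, 2 and 3 and the diamond at -0.47, -1.05 and -1.49.

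Genes listed beside the members gave context for these counts. Of 30 other kinetochore and spindle checkpoint genes, 29 were measured and 6 fell (20.7%): CENPE, a kinetochore motor, the checkpoint kinases BUB1 and TTK, AURKB, the kinase of the passenger complex, CDC20, the target of MAD2L1, and KIF2C, a microtubule-depolymerizing kinesin. All 6 also stand in the gene lists the study drew up from these arrays, so their direction on the arrays is not independent evidence. BUB1 and KIF2C were among the genes with primers for the quantitative RT-PCR by which the study checked its array results. None was called higher (1 was higher at an unadjusted p under 0.05), and the median was -0.64. CDC20 fell most, by 1.56 (adjusted p = 0.107), and the highest, CLASP2, a microtubule plus-end protein, differed by 0.57 (adjusted p = 0.415). The passenger kinase AURKB fell by 1.19 (adjusted p = 0.201), beside BIRC5 and CDCA8, which passed, and INCENP, which did not.

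Genes of the cell cycle phases were read on the same arrays. Of 41 measured G2 and M phase genes outside the members, 11 fell (26.8%), 33 were lower without overlap and the median was -0.99, with CKAP2, a spindle protein, lowest (-1.61, adjusted p = 0.207) and CTCF, a chromatin architecture protein, highest (-0.04, interval -0.57 to 0.48). Of 42 S phase genes, 4 fell (9.52%), 18 were lower without overlap and the median was -0.53, from DTL, a replication-coupled ubiquitin ligase adaptor that fell by 1.19 (adjusted p = 0.175), to CCNE2, a G1/S cyclin at 0.98 (adjusted p = 0.264). The study's lists from these arrays also hold 6 of the 11 and 2 of the 4 (DTL and MCM5), which are not independent evidence of direction. Neither list had a gene called higher, and at an unadjusted p under 0.05 it was 0 of the G2 and M phase genes and 1 of the S phase genes. On slides 1, 2 and 3 the medians were -0.51, -1.06 and -1.48 for the G2 and M phase genes. For the S phase genes they were 0.00, -0.44 and -1.135. The part of the cell cycle distribution in the members' values was not tested.

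The choice of probe mattered for a few members. The 41 members had 53 probes, and 11 members had several. The dimmer probes of ZWINT (-0.09, SE 0.36) and CENPO (-0.02, SE 0.49) lay nearer 0 than the probes used. For CENPN, 1 of the dimmer probes gave -0.22 (SE 0.21), and the other, nearly as bright as the probe used, gave -0.93 (SE 0.25). The dimmer CENPP probe gave 0.95 with an SE of 1.17.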

How the data were processed

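Total RNA of AGS cells was labelled and hybridized to 6 one-colour arrays. The authors deposited the fluorescence intensity of every spot from Agilent Feature Extraction, version 10.5.1.1 per the submitters' processing notes, corrected for background and not normalized between arrays, and a series table of intensity after background subtraction, which matched the scanner column to within 4.8e-09.

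Control spots, spots marked as outliers (100 to 424 per array) and, on si-Control replicate 2, rows 113 to 288 and columns 59 to 115 were left out. The deposited processed intensity was converted to log2, quantile normalized, averaged over spots of a probe and fitted with limma 3.58.1 (lmFit, eBayes) in R 4.3.3, as in the study's methods. P-values were adjusted by Benjamini-Hochberg over 58193 probes, of which 1538 passed p under 0.01 and 2-fold (577 lower, 961 higher) and 49 an adjusted p under 0.05. Probes were named by accession through RefSeq (GRCh38.p14); the scanner files name another build, so coordinates are given for RefSeq promoters only. Where a gene had several probes, the brightest on average over the arrays was used. The script was tested on simulated data.

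The genes named are all 42 members, C1GALT1, and the lowest and highest of the other kinetochore and cell cycle lists; CENPE, BUB1, TTK, AURKB, KIF2C and MCM5, the motif examples and the subunit pairs were chosen after their values were seen, as were the marker genes named. The leukocyte markers are not all reported here. Members and lists were chosen with earlier results of these data known. Same-numbered arrays shared a slide, and their deviations from the group means correlated at 0.198, 0.215 and 0.329. For different numbers the correlations ran from -0.215 to 0.0103. Because deviations are centred within each group, positive values for the same numbers push the others down, so this contrast is partly built in. Within-slide differences took the numbers as pairs. The main fit and its p-values did not, and the replicate as a block was an alternative. The others were the mask (none or wider), 75th percentile or no normalization, dim probes left out and a trended robust prior. A Student's t-test on the same values was also run, which the study's methods name for comparing groups, with limma for the arrays. Further settings kept outlier spots, or took the series table with a floor of 10, normexp with an offset of 50 or the median over probes. Each array was also left out in turn.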

Additional observations from a re-analysis of the deposited data

How the results depend on the processing

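The number of members called was 10 and ranged from 4 to 15. It was 4 without normalization between arrays, 5 with a Student's t-test, and 6 to 11 when each array was left out in turn. The share of all genes called lower moved as well, from 1.33% to 0.575% without normalization and 0.744% with the t-test. It was 1.98% with dim probes left out, where 15 members were called, and 0.976% to 1.6% with an array left out. The other kinetochore genes called numbered 3 without normalization, with the t-test and with the series table, against 6. They were 4 with the replicate as a block, 5 without the mask, 7 with the 75th percentile and with dim probes left out, 9 with normexp, and 3 to 6 with an array left out. Probes called numbered 896 with the t-test and 920 with normexp, against 1538, and the share of lower genes among all genes called was 39.1%, 24.4% without normalization and 58% without the mask. C1GALT1 (-1.0) passed with dim probes left out. With the replicate as a block, 9 members were called: CENPW, MIS12, SGO2 and BIRC5 were lost and CENPH, NDC80 and SGO1 gained, and it changed no other member's call. Single arrays also hid calls: OIP5 and CENPI passed without si-Control replicate 1, SGO1 without si-Control replicate 3, and CENPU and SPC25 without si-C1GALT1-3 replicate 1. CENPO, then with a single si-Control value, was at -1.245 without si-Control replicate 1 and at -0.027 without si-Control replicate 3. Of the 10 calls, 2 were kept in all settings, and 29 members stayed below 0 in all settings.

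Signs turned for 9 members. Without the mask, CENPO was at 1.76, NUF2 0.35, ZWINT 0.89, KNSTRN 1.01, CENPP -0.075, NSL1 -0.083 and PMF1 -0.070. PMF1 was at -0.027 with the 75th percentile, -0.037 with the series table and -0.039 with normexp, and NSL1 at -0.0035 with the series table and -0.017 with normexp. ZW10 was at 0.023 without normalization and SKA2 at 0.022 with the median over probes. With each array left out, NSL1 ran from -0.075 to 0.12, PMF1 from -0.093 to 0.099, CENPP from -0.055 to 0.18 and ZW10 from -0.39 to 0.35. The CENPW minus CENPT difference was -0.34 without the mask. Except where the mask or fewer arrays define the alternative, the cause was not tested. Genes near 0 have no settled sign. Among all 22437 genes 31 had an adjusted p under 0.05 in limma, against 309 of 17749 with dim probes left out and 263 of 22437 with normexp.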
